A study of Mus musculus with 32 samples.

Results

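The 10 genes described here encode transcription factors of the immediate-early response and of the AP-1 complex: *Fos*, *Fosb*, *Jun*, *Junb*, *Jund*, *Egr1*, *Egr2*, *Nr4a1*, *Atf3* and *Ier2*. They were chosen by name, as the array probesets (sets of probes that together report 1 transcript) annotated with exactly that gene symbol. Each gene had 1 such probeset, so 10 of the 19938 genes with a single-gene probeset are described, over 7 groups with 32 arrays in all. The sample titles name no experiment or batch, and the groups are taken here as 2 experiments after the study's comparisons. The first held leukemic bone marrow of 6 *Pax5+/-;Myd88+/-* mice, which lack 1 allele of the B-cell factor *Pax5* and 1 allele of *Myd88*. It also held leukemic bone marrow of 6 *Pax5+/-* mice with both *Myd88* alleles, and 4 samples of sorted wild-type (WT) B220low IgM- proB and preB cells. A second, the proB experiment, held bone marrow B220+ cells of healthy mice, 4 arrays for each of the genotypes *Pax5+/-;Myd88-/-*, *Pax5+/-;Myd88+/-*, *Pax5+/-* and WT. The methods describe such proB cells as magnetically enriched marrow of mice 2 to 3 weeks old, grown with interleukin-7 on ST2 feeder cells, and do not describe *Pax5+/-;Myd88-/-* cells. Per the labels the mice lived in a specific pathogen-free area until 2 months of age and then in a conventional facility, no treatment was given, and every array is a biological replicate. Mice 2 to 3 weeks old would not yet have been moved, and which of the 2 holds for the proB arrays is not known here. The ages of the leukemic mice were not used here. The *Pax5* and *Myd88* alleles are germline, so cells other than B cells carry them too, and no group had *Myd88* loss on a *Pax5* WT background.

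Values are log2 levels after the authors' RMA normalization. A gene was called when limma gave a Benjamini-Hochberg adjusted p under 0.05 over all 28944 probesets and a fold change over 2, and "rose" or "fell" is used for an adjusted p under 0.05 at any fold. Replicates of a group correlated at 0.9666 to 0.9905 in the leukemias, 0.9929 to 0.9958 in the sorted WT cells and 0.9906 to 0.9982 in the proB cells. In WT proB cells, replicates 1 and 3 (r = 0.9982) and replicates 2 and 4 (r = 0.9979) were closer to each other than the remaining combinations were (0.9906 to 0.9912). In all 4 proB genotypes, 12 stromal marker genes summed to a higher level in the odd than in the even replicates, with 13.22 and 13.29 against 11.28 and 11.31 (log2 of the sum) in *Pax5+/-* proB cells. The 4 arrays of a proB genotype may therefore hold fewer than 4 independent cultures, and p-values measure the spread between arrays. *Xist* lay between 12.29 and 12.52 in *Pax5+/-;Myd88-/-* and *Pax5+/-;Myd88+/-* proB cells and between 5.32 and 6.11 in *Pax5+/-* and WT proB cells, which expressed Y-linked genes, so sex and these genotypes cannot be told apart. The B-cell markers *Ebf1* and *Cd79a* were expressed in every group, while *Ebf1* reached as low as 9.57 in a *Pax5+/-* leukemia, against 12.30 or more in sorted WT cells. In *Pax5+/-* leukemias *Rag2* reached 5.01 and *Pax5* 7.69, against 8.92 and 11.81 or more in sorted WT cells. Of 13 precursor B-cell markers, 4 were called lower in *Pax5+/-;Myd88+/-* and 1 in *Pax5+/-* leukemias against sorted WT cells, with 0 higher in both. Of all genes 4.85% and 1.97% were called lower.

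Immediate-early genes are switched on within minutes of a growth factor, antigen receptor or stress signal, without new protein synthesis, by kinases that act on factors already bound to their promoters. Fos and Jun family proteins pair through leucine zippers to form AP-1, and ATF3 can join the Jun proteins, while EGR1, EGR2 and NR4A1 bind DNA through zinc fingers. In developing B cells these genes respond to signals from the pre-B-cell receptor, cytokine receptors and Toll-like receptors, for which MyD88 is an adaptor.

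The promoters of *Fosb*, *Nr4a1*, *Jun* and *Atf3* are shown as examples from the 5 members (these and *Fos*) that passed a test between proB genotypes. They are the 250 bases before the annotated start (RefSeq, build GRCm38.p6), at chr7:19310046-19310295 on the minus strand for *Fosb*, chr15:101266596-101266845 on the plus strand for *Nr4a1*, chr4:95052223-95052472 on the minus strand for *Jun* and chr1:191183334-191183583 on the minus strand for *Atf3*. The genes themselves span chr7:19302696-19310118 (*Fosb*), chr15:101253902-101274795 (*Nr4a1*), chr4:95049036-95052222 (*Jun*) and chr1:191170296-191183333 (*Atf3*), and the array reads their transcripts. The *Nr4a1* window precedes a start inside the gene's annotated span. Capitals mark TGACG (or CGTCA on the other strand), the core of the cAMP response element, and in *Jun* the element TGACATCA.
Fosb: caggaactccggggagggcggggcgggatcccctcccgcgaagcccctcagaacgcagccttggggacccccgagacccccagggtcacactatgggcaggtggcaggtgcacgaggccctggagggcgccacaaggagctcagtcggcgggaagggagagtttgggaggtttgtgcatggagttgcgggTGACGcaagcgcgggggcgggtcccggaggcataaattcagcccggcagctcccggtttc
Nr4a1: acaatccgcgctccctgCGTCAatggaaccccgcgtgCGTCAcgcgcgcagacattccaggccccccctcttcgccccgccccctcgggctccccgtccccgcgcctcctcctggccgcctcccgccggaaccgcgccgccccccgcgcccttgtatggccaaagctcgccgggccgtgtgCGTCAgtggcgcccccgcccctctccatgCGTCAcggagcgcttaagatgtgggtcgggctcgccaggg
Jun: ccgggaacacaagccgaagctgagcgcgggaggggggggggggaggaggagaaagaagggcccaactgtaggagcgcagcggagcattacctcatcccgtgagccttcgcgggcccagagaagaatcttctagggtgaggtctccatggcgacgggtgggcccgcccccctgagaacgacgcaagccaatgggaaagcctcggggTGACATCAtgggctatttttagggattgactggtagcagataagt
Atf3: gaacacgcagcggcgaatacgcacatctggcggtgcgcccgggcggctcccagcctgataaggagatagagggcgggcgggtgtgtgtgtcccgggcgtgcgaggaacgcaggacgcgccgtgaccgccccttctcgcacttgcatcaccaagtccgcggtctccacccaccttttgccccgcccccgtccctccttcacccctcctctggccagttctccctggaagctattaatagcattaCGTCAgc
The TGACG core stood in the windows of 6 of the 8 members searched (all but *Egr1* and *Ier2*), and in 17.8% of all 32851 promoter windows. *Nr4a1* had 4 copies, *Fosb* 1 copy 56 to 60 bases before the start, and *Atf3* 1 copy at 3 to 7 bases. TGACATCA was found in *Jun* alone among the 8 and in 2.93% of windows. The full element TGACGTCA (1.55% of windows) and the AP-1 site TGACTCA (4.46% of windows, both strands searched) were in none of the 8, and a CArG box (1.47% of windows) only in *Egr2*. *Egr2* had several windows, some overlapping, and a match in any of them counted, while the shares are per window. These matches describe letters in the windows and are no evidence of binding.

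The *Pax5+/-* leukemias had the lowest mean of all 7 groups for 8 of the 10 genes, the exceptions being *Jun*, lowest in WT proB cells, and *Jund*, lowest in *Pax5+/-;Myd88+/-* leukemias. Sorted WT cells had the highest mean for 6 genes (*Fos*, *Jun*, *Junb*, *Jund*, *Egr1* and *Egr2*). *Fosb* was highest in *Pax5+/-;Myd88-/-* proB cells (9.52 ± 0.34), *Nr4a1* in *Pax5+/-* proB cells (9.57 ± 0.24) and *Atf3* in *Pax5+/-;Myd88+/-* proB cells (8.18 ± 0.13, SD, n = 4 each). *Ier2* had its highest mean in *Pax5+/-;Myd88+/-* leukemias (8.10 ± 0.52, n = 6). Neighbours in these orders mostly overlapped: among the 7 groups of *Jun*, *Junb*, *Egr1*, *Egr2* and *Ier2* no 2 adjacent groups were separated, whereas *Jund* in sorted WT cells and *Atf3* in *Pax5+/-;Myd88+/-* and in *Pax5+/-;Myd88-/-* proB cells stood clear of the next group.

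**Figure D1:**
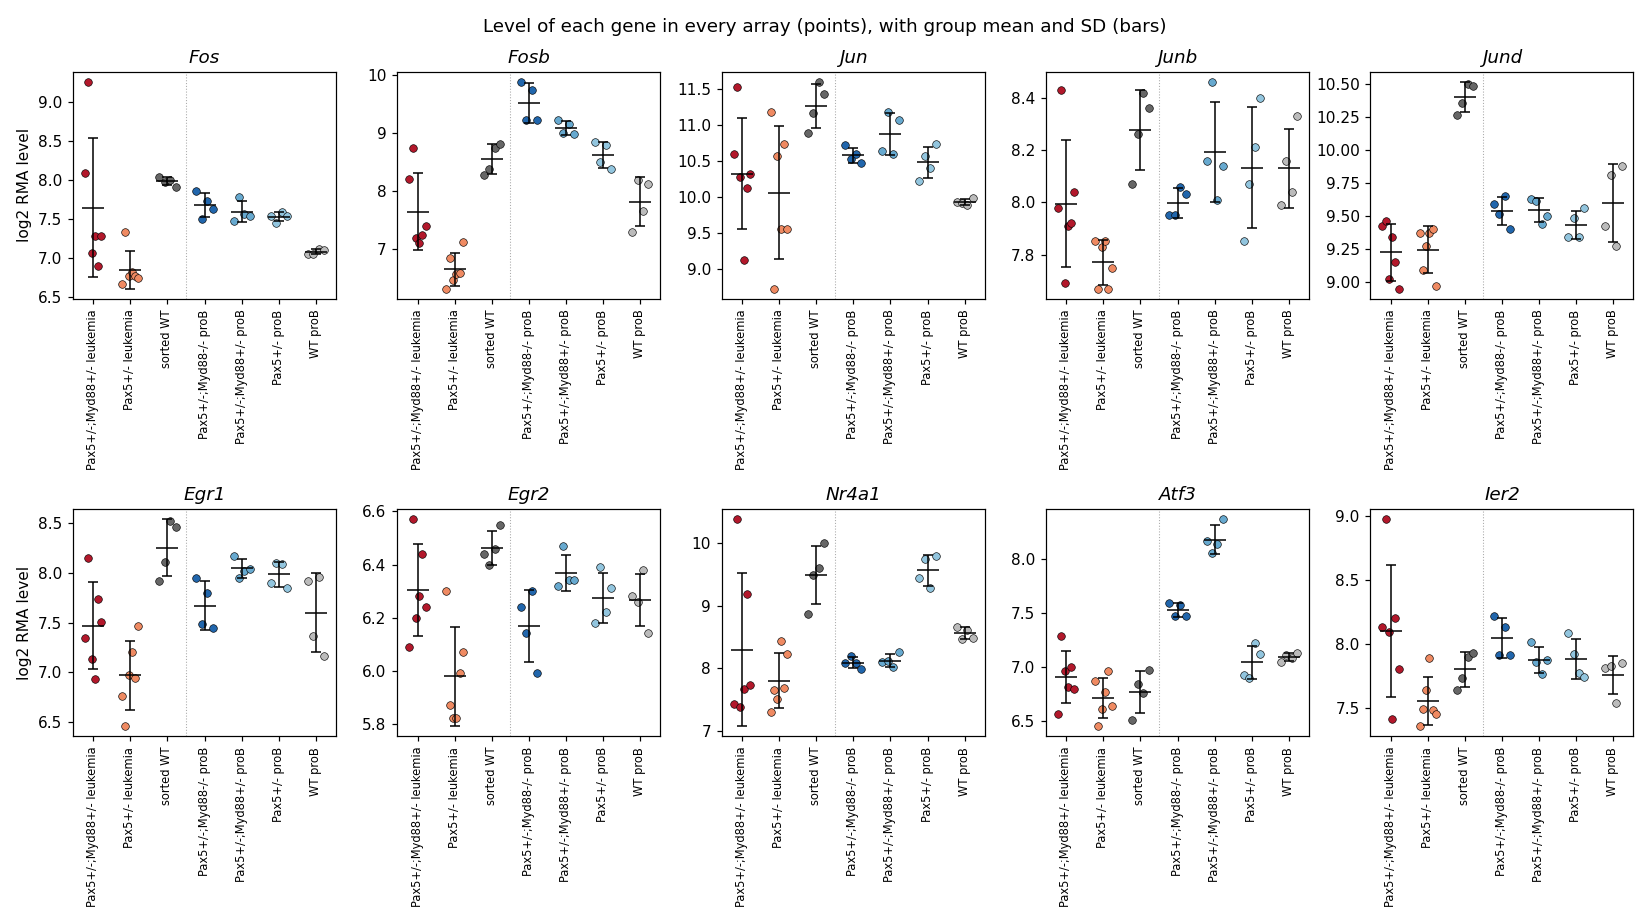
Log2 RMA level (y axis) of the 10 genes in each of the 7 groups (x axis), with 1 point per array and bars for the mean and SD; the dotted line separates the leukemia and proB experiments. *Atf3* in *Pax5+/-;Myd88+/-* proB cells (8.05 to 8.36) lies above every other array, and 1 *Pax5+/-;Myd88+/-* leukemia (replicate 2) tops its group in all 10 panels.

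The first question is how leukemic marrow compared with normal precursor B cells. In *Pax5+/-* leukemias, *Fosb*, *Nr4a1*, *Egr1*, *Jund* and *Fos* were called lower than in sorted WT cells, by 2.19- to 3.74-fold, and *Junb* and *Egr2* fell by less than 2-fold. Thus 5 of 10 members were called, against 4.44% of all probesets (1.72% called lower), and 7 of 10 passed at any fold, all lower, against 24.5% (12.8% lower). For 7 members the groups did not overlap, as for 21.2% of probesets. The median log2 fold change of the 10 members was -1.14, with -0.04 over all genes. *Jun*, *Atf3* and *Ier2* did not pass.

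*Fosb*, a Fos family partner of the Jun proteins, ranged from 6.32 to 7.12 (median 6.58) in the 6 *Pax5+/-* leukemias, against 8.27, 8.39, 8.74 and 8.81 in the sorted WT cells. The groups did not overlap, and the log2 fold change was -1.90 (SE 0.28, adjusted p = 0.000217). *Fos* itself ranged from 6.66 to 7.33 (median 6.77) in *Pax5+/-* leukemias, against 8.04, 7.97, 8.0 and 7.91 in sorted WT cells. The 4 WT values lay close together and above every leukemia. The *Fos* change of -1.13 (SE 0.34, adjusted p = 0.0261) was called with all arrays, and leaving out any 1 of the 4 sorted WT samples raised the adjusted p to between 0.0535 and 0.0621 with changes of -1.11 to -1.16.

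*Jund*, the Jun family member that many resting cells already express, ranged from 8.97 to 9.40 (median 9.32) in *Pax5+/-* leukemias and had 10.26, 10.35, 10.50 and 10.48 in sorted WT cells. The groups did not overlap, and the log2 fold change was -1.15 (SE 0.11, adjusted p = 5.82e-06). *Junb*, which often opposes Jun in proliferation, fell by 0.51 (SE 0.11, adjusted p = 0.0038) without overlap. *Jun*, the founding AP-1 partner, ranged from 8.73 to 11.18 (median 10.07) in *Pax5+/-* leukemias, against 10.89, 11.16, 11.59 and 11.42 in sorted WT cells. Replicate 1 lay inside the WT range and replicate 2 was the lowest array, and the difference of -1.21 (SE 0.46) had an adjusted p of 0.0666. Without replicate 1 the *Jun* difference was -1.44 (adjusted p = 0.0313).

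The zinc finger factors also fell. *Egr1* ranged from 6.46 to 7.47 (median 6.96) in *Pax5+/-* leukemias, against 7.92, 8.11, 8.52 and 8.46 in sorted WT cells, a log2 fold change of -1.29 (SE 0.23, adjusted p = 0.000821) without overlap. *Egr2*, a related factor, fell by 0.48 (SE 0.10, adjusted p = 0.00294), also without overlap. *Nr4a1*, the orphan nuclear receptor NUR77 that antigen receptor signals induce, ranged from 7.30 to 8.44 (median 7.67) in *Pax5+/-* leukemias, against 8.87, 9.49, 9.60 and 10 in sorted WT cells. All leukemias lay below all WT samples and the change was -1.69 (SE 0.50, adjusted p = 0.0233), but without sorted WT replicate 3 or 4 the adjusted p was 0.0589 or 0.0794.

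Against the same sorted WT cells, fewer members passed in the *Pax5+/-;Myd88+/-* leukemias. *Jund* was the only 1 of 10 members called (7.63% of all probesets were), at 8.95 to 9.46 (median 9.25) in *Pax5+/-;Myd88+/-* leukemias, without overlap with the sorted WT cells given above (log2 fold change -1.17, SE 0.11, adjusted p = 1.26e-06). *Fosb* (-0.90, SE 0.28, adjusted p = 0.0235) and *Egr1* (-0.79, SE 0.23, adjusted p = 0.0149) fell by less than 2-fold with overlapping groups, so that 3 of 10 members passed at any fold, all lower, against 30.9% of probesets (17.1% lower). For 1 member the groups did not overlap, as for 27.5% of probesets. *Nr4a1* differed by -1.19 (SE 0.50, adjusted p = 0.0865), *Jun* by -0.94 (adjusted p = 0.138) and *Fos* by -0.34 (adjusted p = 0.5).

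Single arrays of the *Pax5+/-;Myd88+/-* leukemias stood apart from the others. *Nr4a1* had 7.44, 10.38, 7.39, 7.68, 9.19 and 7.73 in replicates 1 to 6, so replicate 2 lay above every sorted WT sample and replicate 5 within their range, while the other 4 were below. *Fos* had 8.08, 9.25, 7.06, 7.28, 6.89 and 7.28, with replicates 1 and 2 above the WT samples. The SD of *Nr4a1* in this group, 1.22, was larger than that of 99% of all probesets, and that of *Fos*, 0.89, larger than that of 97.5%. Replicate 2 was the highest of the 6 for all 10 members and for 15.5% of all probesets. The same array also had the highest sums of stromal (13.76, against 11 to 12.02 in the other 5), platelet (13.14) and erythroid (12.72) marker genes and of 12 integrated stress response genes (12.40), and the next to lowest sum of precursor B-cell markers (14.39). The part of these cells in the members' levels was not tested. Without replicate 2, *Fosb* (-1.12, adjusted p = 0.00108), *Jund* (-1.22, adjusted p = 1.47e-06) and *Nr4a1* (-1.60, adjusted p = 0.00285) were called lower than in sorted WT cells. *Fos* (-0.66, adjusted p = 0.0178), *Junb* (-0.37, adjusted p = 0.00337) and *Egr1* (-0.92, adjusted p = 0.00295) then fell by less than 2-fold. *Jun*, *Egr2*, *Atf3* and *Ier2* did not pass. The share of all probesets passing in that fit was not counted.

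**Figure D2:**
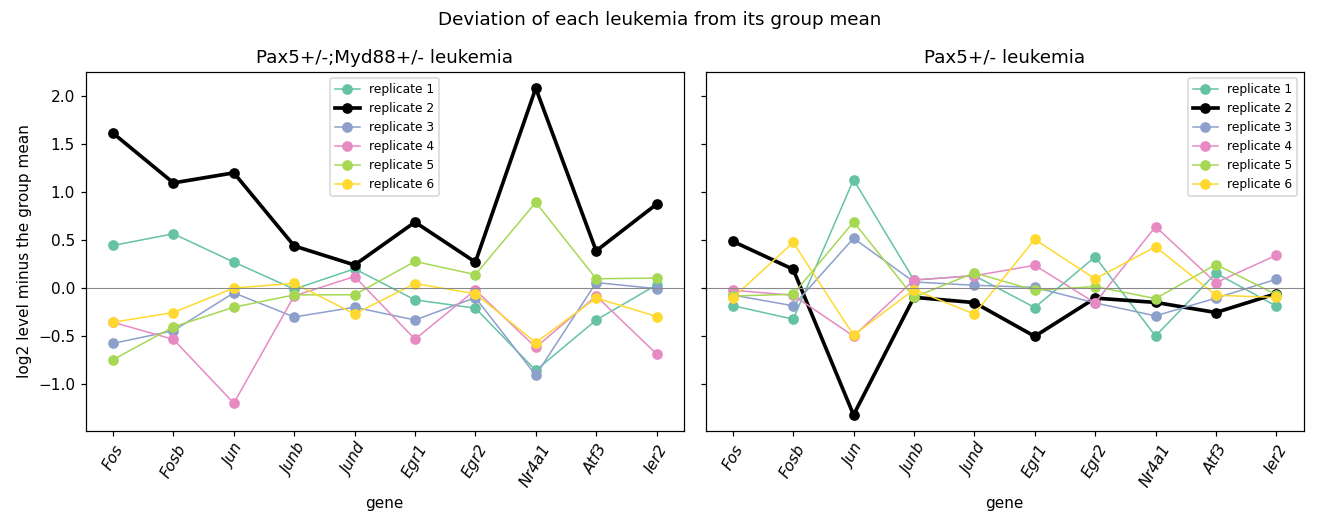
Log2 level minus the group mean (y axis) for each gene (x axis) and each leukemia, with *Pax5+/-;Myd88+/-* leukemias on the left and *Pax5+/-* leukemias on the right; lines join the values of 1 mouse. Replicate 2 (black) is the highest of the 6 *Pax5+/-;Myd88+/-* leukemias for all 10 genes, while no *Pax5+/-* leukemia is highest for more than 3.

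Leukemic marrow and sorted cells also differed in preparation and cell content. Stromal marker genes summed to 11 to 13.76 in *Pax5+/-;Myd88+/-* leukemias, 12.12 to 13.36 in *Pax5+/-* leukemias and 10.19 to 10.36 in sorted WT cells. Precursor B-cell markers summed to 14.18 to 15.59, 13.97 to 15.70 and 15.85 to 15.93 in the same 3 groups, and NK-cell markers to 9.42 to 11.07, 9.75 to 11.66 and 11.69 to 12.56. In bulk samples, fewer cells of a type and less RNA per cell cannot be told apart, and neither can disease and preparation. Sex differed too: *Xist* lay at 12.23 to 12.46 in sorted WT cells, 5.39 to 12.80 in *Pax5+/-;Myd88+/-* and 5.44 to 9.72 in *Pax5+/-* leukemias. The Y-linked *Eif2s3y* reached 4.93, 9.59 and 10.1 in the same order. The part of sex in the members' differences between these 3 groups was not tested.

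Next, the *Pax5+/-;Myd88+/-* leukemias were set against the *Pax5+/-* leukemias, which asks what the missing *Myd88* allele went with in established disease. With limma 0 of 10 members were called (3.81% of all probesets were), 6 had an unadjusted p under 0.05, and the methods' t-test also called 0. The groups did not overlap for 0 members and for 14.3% of probesets. At any fold 3 members passed, all higher, against 34.4% of probesets (18.1% higher), and the median log2 fold change of the members was 0.41. Platelet markers summed to 9.52 to 13.14 in *Pax5+/-;Myd88+/-* and 11.93 to 14.15 in *Pax5+/-* leukemias, and monocyte markers to 10.71 to 14.03 and 12.43 to 13.98, with 2 of 7 and 3 of 14 genes called lower in *Pax5+/-;Myd88+/-* leukemias, as were 2 of 12 stromal markers. The part of these cells in the members' differences was not tested. *Fosb* ranged from 7.11 to 8.74 (median 7.32) in *Pax5+/-;Myd88+/-* leukemias, against 6.32 to 7.12 (median 6.58) in *Pax5+/-* leukemias, and only *Pax5+/-;Myd88+/-* replicate 4 lay below the highest *Pax5+/-* value. Its log2 fold change was 1.00 (SE 0.25, adjusted p = 0.00665), at the edge of the 2-fold limit, and 0.78 (adjusted p = 0.0069) without *Pax5+/-;Myd88+/-* replicate 2. *Egr2* rose by 0.33 (SE 0.09, adjusted p = 0.0122) and *Ier2*, a nuclear protein of the same early response, by 0.55 (SE 0.19, adjusted p = 0.035). Both groups overlapped for these genes, and without replicate 2 the changes were 0.27 (adjusted p = 0.0258) and 0.37 (adjusted p = 0.0445). *Fos* differed by 0.79 (SE 0.31, adjusted p = 0.0581), and *Nr4a1*, *Egr1* and *Jun* by 0.50, 0.50 and 0.27 with adjusted p from 0.0681 to 0.646. *Jund* averaged 9.22 ± 0.21 in *Pax5+/-;Myd88+/-* and 9.24 ± 0.18 in *Pax5+/-* leukemias (SD, n = 6 each; difference -0.02, SE 0.10).

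**Figure D3:**
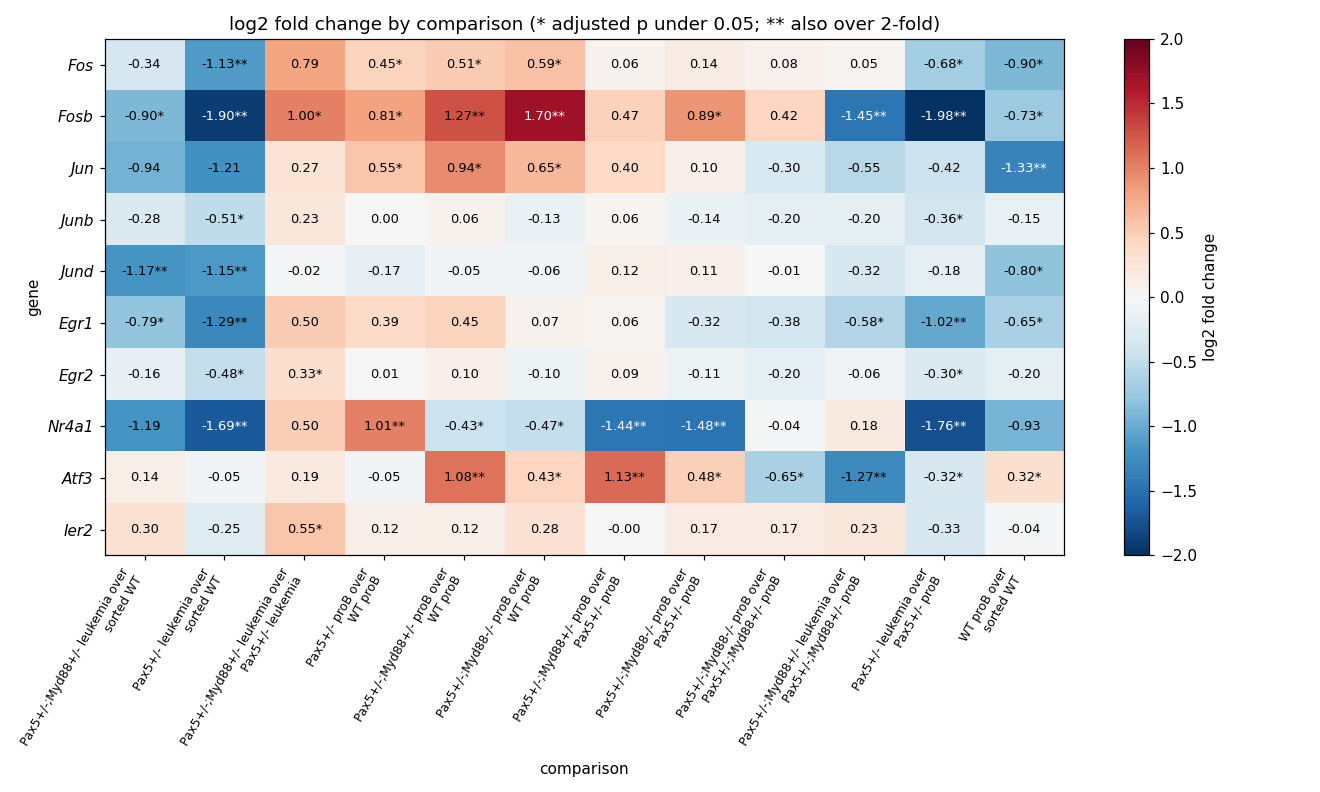
Log2 fold change of the 10 genes (rows) in 12 comparisons (columns, with the first-named group over the second); 1 star marks an adjusted p under 0.05 and 2 stars also a fold change over 2. The second column, *Pax5+/-* leukemias over sorted WT cells, holds 5 genes with 2 stars, all negative.

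In the healthy proB cells the questions were what *Pax5* heterozygosity went with, and what a missing *Myd88* allele added. All 3 *Pax5+/-* genotypes differed from WT proB cells in the same direction for *Fos*, *Fosb* and *Jun*, which rose in each, while *Nr4a1* and *Atf3* differed between the *Myd88* genotypes. Most of these rises no longer passed with proB replicates 1 and 3, and 2 and 4, averaged, as given below. Both *Myd88*-mutant genotypes also had the other sex than *Pax5+/-* and WT cells, as given above. The 3 comparisons share the WT arrays.

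*Fosb* had 9.88, 9.22, 9.75 and 9.23 in *Pax5+/-;Myd88-/-* proB cells, 9.23, 9.0, 9.16 and 8.99 in *Pax5+/-;Myd88+/-* cells, 8.84, 8.5, 8.80 and 8.38 in *Pax5+/-* cells, and 7.30, 8.19, 7.66 and 8.13 in WT cells. No array of a *Pax5+/-* genotype overlapped with WT. The log2 fold change over WT was 1.70 (SE 0.19, adjusted p = 1.08e-05) in *Pax5+/-;Myd88-/-* cells, 1.275 (SE 0.19, adjusted p = 0.000258) in *Pax5+/-;Myd88+/-* cells and 0.81 (SE 0.19, adjusted p = 0.0124) in *Pax5+/-* cells, the first 2 past the 2-fold limit. The WT cells were lower in the odd than in the even replicates, so the difference was larger within the odd than within the even ones: 2.34 (odd) and 1.07 (even) for *Pax5+/-;Myd88-/-* cells, 1.72 (odd) and 0.84 (even) for *Pax5+/-;Myd88+/-* cells, and 1.34 (odd) and 0.28 (even) for *Pax5+/-* cells. With the genotype arrays averaged by these sets, the *Pax5+/-;Myd88+/-* call was lost (adjusted p = 0.12). The *Fosb* rise in *Pax5+/-* cells then no longer passed either (adjusted p = 0.345).

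*Fos* had 7.85, 7.49, 7.72 and 7.62 in *Pax5+/-;Myd88-/-* proB cells, 7.47, 7.78, 7.56 and 7.54 in *Pax5+/-;Myd88+/-* cells, 7.54, 7.45, 7.58 and 7.53 in *Pax5+/-* cells, and 7.05, 7.05, 7.11 and 7.10 in WT cells. It rose over WT by 0.59, 0.51 and 0.45 in these 3 genotypes (SE 0.07, highest adjusted p = 0.000804), all below 2-fold and all without overlap. *Jun* had 10.72, 10.52, 10.59 and 10.47 in *Pax5+/-;Myd88-/-* cells, 10.64, 11.18, 10.60 and 11.07 in *Pax5+/-;Myd88+/-* cells, 10.22, 10.56, 10.40 and 10.73 in *Pax5+/-* cells, and 9.93, 9.92, 9.89 and 9.98 in WT cells. Its rise of 0.65 in *Pax5+/-;Myd88-/-*, 0.94 in *Pax5+/-;Myd88+/-* and 0.55 in *Pax5+/-* cells (SE 0.12, highest adjusted p = 0.0102) was again without overlap. With replicates 1 and 3, and 2 and 4, averaged, the *Jun* rise passed in none of these genotypes (adjusted p = 0.0763 to 0.312). The *Fos* rise was then lost in *Pax5+/-;Myd88+/-* (adjusted p = 0.0559) and *Pax5+/-* cells (adjusted p = 0.0846). *Junb*, *Jund* and *Egr2* did not pass the test in any of the 3 comparisons, with log2 fold changes between -0.17 and 0.10. *Egr1* (0.07, 0.45 and 0.39) and *Ier2* (0.28, 0.12 and 0.12 in *Pax5+/-;Myd88-/-*, *Pax5+/-;Myd88+/-* and *Pax5+/-* cells) did not pass either.

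*Nr4a1* separated *Pax5+/-* proB cells from the other genotypes. It had 8.09, 8.20, 8.08 and 7.99 in *Pax5+/-;Myd88-/-* cells, 8.10, 8.12, 8.02 and 8.26 in *Pax5+/-;Myd88+/-* cells, 9.45, 9.75, 9.28 and 9.79 in *Pax5+/-* cells, and 8.67, 8.47, 8.61 and 8.49 in WT cells. The *Pax5+/-* arrays were above, and those of both *Myd88*-deficient genotypes below, every WT array. Over WT it rose in *Pax5+/-* cells by 1.01 (SE 0.10, adjusted p = 2.8e-06) and fell by 0.435 in *Pax5+/-;Myd88+/-* cells (adjusted p = 0.0103) and by 0.47 in *Pax5+/-;Myd88-/-* cells (adjusted p = 0.00384). Against *Pax5+/-* cells it was called lower in *Pax5+/-;Myd88+/-* cells (-1.44, SE 0.10, adjusted p = 4.23e-08) and in *Pax5+/-;Myd88-/-* cells (-1.48, SE 0.10, adjusted p = 3.16e-08), with -1.31 and -1.58 within the odd and even replicates for *Pax5+/-;Myd88+/-* and -1.28 and -1.68 for *Pax5+/-;Myd88-/-*. The change over WT in *Pax5+/-* cells lay so close to 2-fold that leaving out *Pax5+/-* replicate 2 or 4 or WT replicate 2 or 4 gave values of 0.93 to 0.98, each with an adjusted p of 2.1e-05 or less. With replicates 1 and 3, and 2 and 4, averaged, the falls against WT no longer passed in *Pax5+/-;Myd88+/-* (adjusted p = 0.303) and *Pax5+/-;Myd88-/-* cells (adjusted p = 0.12).

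*Atf3*, a stress-inducible repressor of the same zipper class, had 7.59, 7.47, 7.57 and 7.47 in *Pax5+/-;Myd88-/-* proB cells, 8.16, 8.05, 8.13 and 8.36 in *Pax5+/-;Myd88+/-* cells, 6.93, 6.90, 7.22 and 7.12 in *Pax5+/-* cells, and 7.05, 7.11, 7.08 and 7.13 in WT cells. It was thus highest with 1 *Myd88* allele missing, lower but still above the other genotypes with both missing, and overlapped between *Pax5+/-* and WT cells. The log2 fold change of *Pax5+/-;Myd88+/-* cells was 1.08 over WT (SE 0.08, adjusted p = 5.52e-08) and 1.13 over *Pax5+/-* cells (SE 0.08, adjusted p = 3.44e-08), the second being 1.07 within the odd and 1.20 within the even replicates. *Pax5+/-;Myd88-/-* cells rose by 0.43 over WT (adjusted p = 0.000986) and by 0.48 over *Pax5+/-* cells (adjusted p = 0.000491), and fell by 0.65 against *Pax5+/-;Myd88+/-* cells (SE 0.08, adjusted p = 3.06e-05).

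In counts, 1 of 10 members was called in *Pax5+/-;Myd88-/-* against WT cells (1.28% of all probesets were called), 2 in *Pax5+/-;Myd88+/-* against WT cells (1.15%) and 1 in *Pax5+/-* against WT cells (1.08%). At any fold 5, 5 and 4 members passed in these 3 comparisons, against 15.7%, 6.06% and 7.06% of probesets, and for 6, 5 and 4 members the groups did not overlap, against 21.8%, 9.39% and 10.2%. Between the *Pax5+/-* genotypes, 1 was called in *Pax5+/-;Myd88-/-* against *Pax5+/-* cells (0.981%) and 2 in *Pax5+/-;Myd88+/-* against *Pax5+/-* cells (0.812%), with 3 and 2 members passing at any fold, against 11.5% and 4.3% of probesets. In *Pax5+/-;Myd88-/-* against *Pax5+/-;Myd88+/-* cells limma called 0 members (0.805% of probesets), with 1 passing at any fold (10.4%), 5 at an unadjusted p under 0.05 and 0 called by the methods' t-test. *Fosb* also rose in *Pax5+/-;Myd88-/-* over *Pax5+/-* cells (0.89, SE 0.19, adjusted p = 0.00625), but did not pass with replicates 1 and 3, and 2 and 4, averaged (adjusted p = 0.196).

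**Figure D4:**
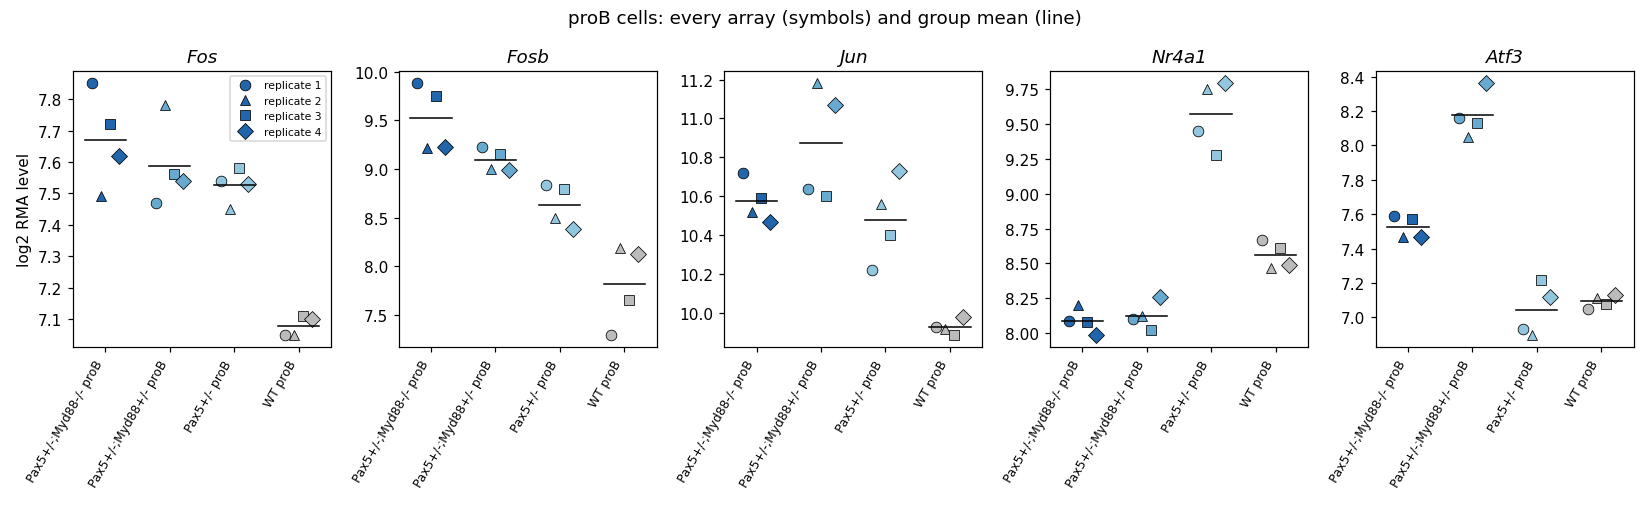
Log2 RMA level (y axis) of *Fos*, *Fosb*, *Jun*, *Nr4a1* and *Atf3* in proB cells of 4 genotypes (x axis), with 1 symbol shape per replicate number and a line at the group mean. *Nr4a1* in *Pax5+/-* cells (9.28 to 9.79) and *Atf3* in *Pax5+/-;Myd88+/-* cells (8.05 to 8.36) stand above the other genotypes, and WT *Fosb* is lower in replicates 1 and 3 (7.30 and 7.66) than in 2 and 4 (8.19 and 8.13).

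The change with the missing *Myd88* allele was then compared between leukemias and proB cells, as *Pax5+/-;Myd88+/-* minus *Pax5+/-* in each and the difference of the 2. *Nr4a1* differed by 0.50 in leukemias and by -1.44 in proB cells, and the difference of 1.94 (SE 0.53, adjusted p = 0.00877) made it the 1 member of 10 past both limits, against 4.55% of all probesets. Without *Pax5+/-;Myd88+/-* leukemia replicate 2 it was 1.53 (adjusted p = 0.00318). *Atf3* differed by 0.19 in leukemias and by 1.13 in proB cells, a difference of -0.94 (SE 0.15, adjusted p = 3.51e-05), and -1.02 without that replicate, so that 2 of 10 members passed at any size, against 21.8% of probesets. The other 8 members did not pass, with differences from -0.14 to 0.73. With the proB arrays averaged in 2 sets per genotype, no member was past both limits. The 2 experiments also differed in preparation, culture and cell state, which cannot be told apart from leukemia. In the proB cells sex and the *Myd88* genotype cannot be told apart. *Xist* lay at 12.40 to 12.52 in *Pax5+/-;Myd88+/-* and 5.61 to 5.97 in *Pax5+/-* proB cells. In the leukemias it ranged from 5.39 to 12.80 and from 5.44 to 9.72, in the same order. The part of sex in these differences was not tested.

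**Figure D5:**
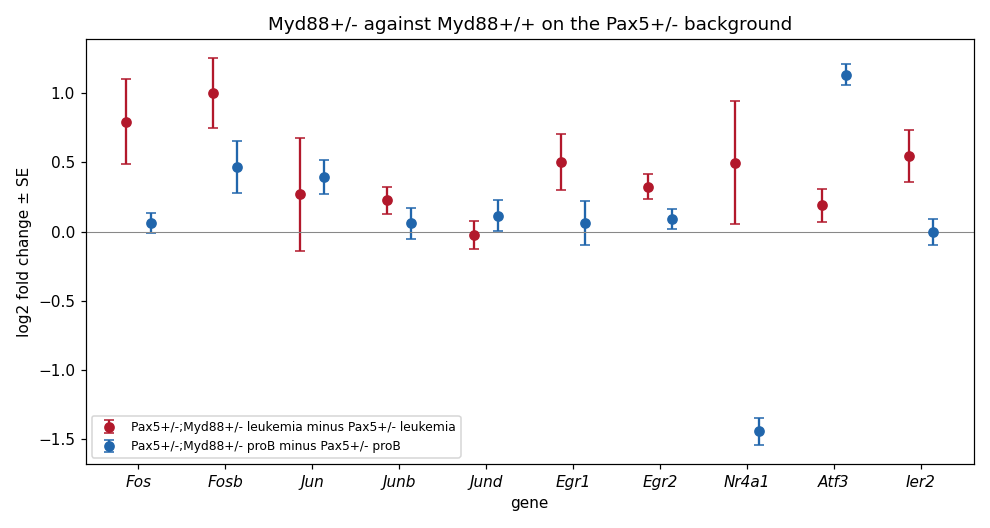
Log2 fold change ± SE (y axis) of *Pax5+/-;Myd88+/-* over *Pax5+/-* samples for each gene (x axis), in leukemias (red) and in proB cells (blue). *Nr4a1* is at 0.50 in leukemias and -1.44 in proB cells, and *Atf3* at 0.19 and 1.13.

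Leukemias were also set against proB cells of the same genotype. *Fosb* and *Atf3* were called lower in *Pax5+/-;Myd88+/-* leukemias than in *Pax5+/-;Myd88+/-* proB cells (-1.45, SE 0.25, adjusted p = 0.000151 and -1.27, SE 0.11, adjusted p = 1.88e-09), 2 of 10 members against 2.84% of probesets, and 3 passed at any fold, against 14.6%. In *Pax5+/-* leukemias *Fosb* (-1.98, SE 0.25, adjusted p = 1.8e-07), *Nr4a1* (-1.76, SE 0.38, adjusted p = 0.000303) and *Egr1* (-1.02, SE 0.20, adjusted p = 0.00011) were called lower than in *Pax5+/-* proB cells, 3 of 10 against 8.47%, and 7 passed at any fold, against 53.4%. The groups did not overlap for these 2 members in the *Pax5+/-;Myd88+/-* comparison, as for 10% of probesets, and for these 3 and 1 more in the *Pax5+/-* comparison, as for 33.9%. The *Egr1* change in the *Pax5+/-* comparison was -0.92 to -0.98 without *Pax5+/-* leukemia replicate 1 or 2 or *Pax5+/-* proB replicate 2 or 3, and so below 2-fold. With the proB arrays averaged by pair, *Egr1* no longer passed in the *Pax5+/-;Myd88+/-* comparison (adjusted p = 0.291). In the *Pax5+/-* comparison *Fos* (adjusted p = 0.178), *Egr2* (adjusted p = 0.0588) and *Atf3* (adjusted p = 0.0893) were then lost. WT proB cells against sorted WT cells gave *Jun* as the 1 called member (9.94% of probesets were called), with 9.93, 9.92, 9.89 and 9.98 in WT proB cells and 10.89, 11.16, 11.59 and 11.42 in sorted WT cells (adjusted p = 0.00567). With proB replicates 1 and 3, and 2 and 4, averaged, this call was lost (adjusted p = 0.0759). *Fos*, *Fosb*, *Jund* and *Egr1* fell by 0.65 to 0.90 in WT proB cells, and *Atf3* rose by 0.32 (adjusted p = 0.027), 6 members at any fold with *Jun*, against 42.5% of probesets. With the proB arrays averaged in the same way, *Fos*, *Fosb*, *Egr1* and *Atf3* no longer passed (adjusted p = 0.102 to 0.143). Experiment, sex, culture and cell stage cannot be told apart in these comparisons.

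Other genes of the pathway were read from lists written for this purpose. Of 36 further immediate-early genes, 12 were called lower and 1 higher in *Pax5+/-;Myd88+/-* leukemias against sorted WT cells, and 10 lower and 1 higher in *Pax5+/-* leukemias, while 4.85% and 1.97% of all genes were called lower. *Rgs2*, which restrains G-protein signals, changed by -3.13 in *Pax5+/-;Myd88+/-* and by -2.77 in *Pax5+/-* leukemias, and the anti-proliferative *Btg2* by -2.76 and by -2.24 (highest adjusted p = 0.00252). *Zfp36*, which destabilises cytokine mRNAs, fell by 2.25 in *Pax5+/-;Myd88+/-* leukemias and *Plk2*, a polo-like kinase, fell by 2.15 in *Pax5+/-* leukemias. In WT proB cells against sorted WT cells 14 of the 36 were called lower and 2 higher, with 6.9% of all genes called lower, and *Sik1*, a salt-inducible kinase, fell by 3.85 (adjusted p = 3.43e-07). Against proB cells of their genotype the list ran otherwise: 2 were called higher and 2 lower in *Pax5+/-;Myd88+/-* leukemias (1.8% and 1.0% of all genes), and 5 higher and 0 lower in *Pax5+/-* leukemias (6.72% and 1.76%). *Sik1* (2.65), the small GTPase gene *Rhob* (2.47) and *Rgs1* (1.25) were among the 5 in *Pax5+/-* leukemias.

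In proB cells, 3 of the 36 were called higher in *Pax5+/-;Myd88+/-* over WT cells, 0.612% of all genes being so: *Rgs2* (1.95), *Rgs1* (1.5) and the early activation antigen *Cd69* (1.18, adjusted p = 1.42e-06). *Cd69* (1.18) and *Rgs2* (1.16) were also called in *Pax5+/-;Myd88-/-* over WT cells, and *Rgs2* (1.36) in *Pax5+/-* over WT cells. *Rgs1* was the 1 called gene of this list in *Pax5+/-;Myd88+/-* over *Pax5+/-* cells (1.25, adjusted p = 2.43e-07). Of 15 feedback inhibitors of these pathways, 1 was called lower and 1 higher in *Pax5+/-;Myd88+/-* leukemias and 3 lower and 2 higher in *Pax5+/-* leukemias, against sorted WT cells, while 4.85% and 2.22% of all genes were called lower and higher with *Pax5+/-;Myd88+/-* leukemias and 1.97% and 3.05% with *Pax5+/-* leukemias. *Spred1*, which restrains Ras signals, was called higher in both (1.02 in *Pax5+/-;Myd88+/-* and 1.11 in *Pax5+/-* leukemias). *Dusp1* and *Dusp2*, phosphatases of MAP kinases, were called lower in *Pax5+/-* leukemias than in sorted WT cells (-1.52 and -1.27), and *Dusp10*, which acts on stress kinases, was called lower in *Pax5+/-;Myd88+/-* leukemias than in sorted WT cells (-1.46) and than in *Pax5+/-* leukemias (-1.06, adjusted p = 0.00127). None of 11 other bZIP partners (further Fos, BATF, ATF and small Maf genes) was called by limma in any of the 12 comparisons, with 0 to 6 at an unadjusted p under 0.05 and medians from -0.22 to 0.15. Of 17 upstream kinases and factors, only *Mapk9* (-1.18) and *Mapk14* (-1.07), a Jun kinase and a p38 kinase, were called, in WT proB cells against sorted WT cells, where 6.9% of all genes were called lower.

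*Atf3* is also a target of the integrated stress response. Of 12 genes of that response, 4 rose and 0 fell at any fold in *Pax5+/-;Myd88+/-* over *Pax5+/-* proB cells, and 6 fell and 0 rose in *Pax5+/-;Myd88-/-* against *Pax5+/-;Myd88+/-* cells, with 2.31% of all genes rising and 4.67% falling in those comparisons. None of these reached 2-fold. Where *Atf3* rose in *Pax5+/-;Myd88-/-* over WT cells, 0 of the 12 rose and 3 fell (median -0.19), with 8.0% of all genes rising and 6.63% falling. Where it rose in *Pax5+/-;Myd88-/-* over *Pax5+/-* cells, 1 rose and 0 fell (median -0.03), with 6.02% of all genes rising and 5.53% falling. In *Pax5+/-;Myd88+/-* over WT cells 2 rose and 0 fell (median 0.11), with 3.55% of all genes rising and 2.77% falling. The comparisons with WT turned between replicate sets. In the odd replicates the 12 genes summed to 12.352 and 12.442 in *Pax5+/-;Myd88+/-*, 12.462 and 12.326 in *Pax5+/-;Myd88-/-* and 11.957 and 11.939 in WT cells. In the even replicates the sums were 12.085 and 12.132, 12.08 and 12.013, and 12.346 and 12.409, in the same order. In *Pax5+/-;Myd88+/-* leukemias against *Pax5+/-;Myd88+/-* proB cells 6 of the 12 fell (8.99% of all genes did), and *Asns*, asparagine synthetase, was called lower (-3.35, adjusted p = 1.49e-06), as was *Trib3* (-1.11), a pseudokinase of that response. Of 11 heat shock genes, limma called 0 in every comparison between proB genotypes, with 1 to 6 at an unadjusted p under 0.05 and medians between -0.17 and 0.25.

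Correlations between members within groups were mostly positive. After the group means were removed, 44 of 45 pairs of members had a positive correlation over the 32 arrays, with a median of 0.40, from -0.10 for *Jund* with *Egr1* to 0.75 for *Fos* with *Fosb*. These correlations are descriptions over arrays that may share cultures and marker content, as above. They were not set against those of other gene pairs. Nor were they computed without *Pax5+/-;Myd88+/-* leukemia replicate 2, the highest array of its group for all 10 members. Outside the 10 genes, the gene most like *Jund* over all arrays was *Tbc1d1* (r = 0.908, and 0.615 within groups), the gene most like *Jun* was *Prkce* (r = 0.835, and 0.82 within groups), and that most like *Fos* was *Clnk* (r = 0.78, and 0.89 within groups). For *Fosb* and *Atf3* the likest genes, *Epb41l5* (r = 0.83) and *Igsf9b* (r = 0.83), had correlations of 0.06 and -0.08 within groups. The likest gene to *Nr4a1* was *Zmynd11* (r = 0.74), to *Egr1* *Jakmip1* (r = 0.83), to *Egr2* *Erp27* (r = 0.83), to *Junb* *Serpinb6c* (r = 0.82) and to *Ier2* *Apold1* (r = 0.71).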

How the data were processed

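RNA of 32 samples in 7 groups was read on Affymetrix mouse gene arrays. The authors made the deposited log2 values with Transcriptome Analysis Console (gene-level RMA: background correction, quantile normalization and median polish), on genome mm10. RMA assumes that most genes do not change, and whether all arrays were normalized together is not stated in the sources used here. All 28944 probesets were tested with limma 3.58.1 in R 4.3.3, without a filter: the leukemia groups in 1 fit, the proB groups in another, and all 32 arrays for comparisons across experiments. Of the probesets 21789 named 1 gene. The number of arrays limits the precision. The members, gene lists and rules were chosen with earlier results of these data known. Named genes beyond the members are up to 3 called genes of a list with the largest change per comparison, and for each member the 3 genes with the highest correlation over all arrays, of which the first is given. Marker levels are log2 of summed linear values. Promoters were matched by symbol, with member windows on chromosome 18 left out, which left 8 of 10 members. *Egr1* lies on that chromosome, and *Ier2* had no window. Labels pair no samples by replicate number. In *Pax5+/-;Myd88-/-* against WT proB cells same-numbered arrays deviated together (r = 0.117 to 0.216), and the block changed no call there. The fit was tested on simulated data.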

Additional observations from a re-analysis of the deposited data

Results flagged for a closer look

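*Fos* in *Pax5+/-* leukemia replicate 2 was 7.33, the highest of its 6 arrays, with the next at 6.82. *Egr2* in *Pax5+/-;Myd88+/-* proB replicate 2 was 6.47, the highest of 4, with the next at 6.34. *Ier2* in WT proB replicate 3 was 7.54, the lowest of 4, with the next at 7.81. These are arrays far from the others of their group (Dixon's test), 3 of 70 gene and group combinations examined, and chance flags about 1 in 20 groups.

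The change that went with the missing *Myd88* allele differed between leukemias and proB cells for *Nr4a1* (difference 1.94, adjusted p = 0.00877, limma) and for *Atf3* (difference -0.94, adjusted p = 3.51e-05). Thus 2 of 10 members passed at any size, against 21.8% of all probesets, and 1 of 10 passed both limits, against 4.55%. With the proB arrays averaged in 2 sets per genotype, no member was past both limits. Sex and *Myd88* genotype cannot be told apart in the proB cells.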

How the results depend on the processing

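None of the 49 member results with an adjusted p under 0.05 changed direction under the alternatives run. Of these, those that lost the limit they had passed numbered 12 (21 kept it) with all 32 arrays in 1 fit, 4 with only the groups compared, 3 with median centring, 2 with quantile normalization again, 0 with a filter at a mean of 6 or limma-trend, and 9 with the methods' t-test after adjustment.

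Counts of called members moved as follows. With all 32 arrays in 1 fit the count was 2 in *Pax5+/-;Myd88+/-* leukemias against sorted WT cells, 0 in *Pax5+/-* against WT proB cells and 1 in *Pax5+/-;Myd88+/-* against *Pax5+/-* proB cells. Median centring and quantile normalization again each gave 0 in *Pax5+/-* against WT proB cells (*Nr4a1* at 0.99), and quantile normalization gave 2 members for the difference of the *Myd88* allele effect. With no fold threshold the counts were 3, 3, 4, 5, 5, 3, 1, 7 and 6 in *Pax5+/-;Myd88+/-* leukemias against sorted WT cells, *Pax5+/-;Myd88+/-* against *Pax5+/-* leukemias, *Pax5+/-*, *Pax5+/-;Myd88+/-* and *Pax5+/-;Myd88-/-* against WT proB cells, *Pax5+/-;Myd88-/-* against *Pax5+/-* and against *Pax5+/-;Myd88+/-* proB cells, *Pax5+/-* leukemias against *Pax5+/-* proB cells, and WT proB against sorted WT cells. The study's thresholds gave 2 in *Pax5+/-;Myd88+/-* leukemias against sorted WT cells, and the methods' t-test after adjustment gave 1 in *Pax5+/-;Myd88+/-* leukemias against *Pax5+/-;Myd88+/-* proB cells.

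Added after seeing the data, averaging replicates 1 with 3 and 2 with 4 in all proB genotypes gave 1 member in *Pax5+/-;Myd88+/-* against WT proB cells, 0 in WT proB against sorted WT cells and 0 for the difference of the allele effect. Fewer samples enter that fit. There 17 member results kept their limit and 19 lost it, and with the WT proB arrays alone averaged 30 kept it and 6 lost it. Taking odd and even proB replicates as 2 batches lost none of 20.

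With 1 array left out the counts ranged from 1 to 3 in *Pax5+/-;Myd88+/-* leukemias and from 3 to 6 in *Pax5+/-* leukemias against sorted WT cells, 0 to 1 between the leukemias, 0 to 1 in *Pax5+/-* against WT proB cells, 2 to 3 in *Pax5+/-;Myd88+/-* against WT proB cells, 2 to 3 in *Pax5+/-* leukemias against *Pax5+/-* proB cells, 1 to 2 in WT proB against sorted WT cells, and 1 to 2 for the difference of the allele effect. Between the leukemias, *Fosb* was called without *Pax5+/-;Myd88+/-* replicate 3, 4, 5 or 6 or *Pax5+/-* replicate 2 or 6 (1.04 to 1.11). *Jun* in *Pax5+/-;Myd88+/-* against WT proB cells was called without *Pax5+/-;Myd88+/-* replicate 1 (1.02) or 3 (1.03), *Nr4a1* in WT proB against sorted WT cells without sorted WT replicate 1 (-1.14), *Fosb* in *Pax5+/-;Myd88+/-* leukemias against sorted WT cells without *Pax5+/-;Myd88+/-* replicate 1 (-1.02) or 2, and *Atf3* passed the size limit for the allele effect without *Pax5+/-* proB replicate 3 or *Pax5+/-;Myd88+/-* leukemia replicate 2.

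Labels pair no samples by number, but same-numbered arrays deviated together in more proB comparisons than *Pax5+/-;Myd88-/-* against WT. The correlations were 0.036 to 0.29 in *Pax5+/-;Myd88-/-* against *Pax5+/-* proB cells and 0.01 to 0.124 in *Pax5+/-* against WT proB cells. They were negative, -0.272 to -0.121, in *Pax5+/-;Myd88+/-* against WT proB cells. With the replicate number as a block, *Fos* in *Pax5+/-* leukemias against sorted WT cells was -0.97 (adjusted p = 0.0442) and so under 2-fold, and *Fosb* in *Pax5+/-;Myd88+/-* leukemias against sorted WT cells (-0.87, adjusted p = 0.0666), *Ier2* between the leukemias (0.55, adjusted p = 0.0638) and *Fos* in *Pax5+/-* leukemias against *Pax5+/-* proB cells (-0.52, adjusted p = 0.0892) no longer passed. The block changed no other call. Other probesets of a member could not be run, as each has 1. The number of arrays, their pairing in proB cells and the mixed cells of leukemic marrow limit these results.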
